A study of Homo sapiens with 6 samples.

Results

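The collagen alpha chain genes measured here were 32 genes of the 19775 that had at least 1 probe set with a single gene symbol. Their probe sets were taken by symbol, but the list was drawn up with earlier results of these data known. Together the 32 genes had 91 probe sets, each a group of short probes read as 1 signal. A chain was counted as above background where the mean of its brightest probe set over the 6 arrays exceeded 174 array units, the 40th percentile of all probe sets, and 25 of the 32 genes met this through 51 probe sets. The lines were TEM4-18 and TEM2-5, each isolated from parental cells that migrated through a confluent monolayer of human lung microvascular endothelium, and PC-3, their parent, which came from a prostate cancer that had spread to bone. The design text calls TEM2-5 a biological replicate of TEM4-18, made by running the experiment again. All 3 lines were grown in the same medium with serum. Total RNA of each line was hybridised to 2 arrays, and since separate cultures are not mentioned, the p-values rest on a spread between arrays that may be technical only. Each TEM line is 1 isolate, and the labels do not say whether an isolate is a single clone.

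Collagens are secreted matrix proteins built from 3 alpha chains wound into a triple helix, and each type has its own set of chains. Fibril-forming collagens give tissues their tensile strength, type IV collagen forms the sheet-like network of basement membranes, type VI forms beaded microfilaments around cells, and fibril-associated collagens decorate fibrils. Fibroblasts and other mesenchymal cells make most fibrillar collagen, while epithelial and endothelial cells lay down type IV collagen. Fibrillar and basement membrane collagens are both barriers and footholds for invading tumour cells.

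The identity of the lines was checked with marker genes. KRT8 and KRT18, keratins of simple epithelia, had signals of 7379 and 6062 and of 29511 and 28959.7 in TEM4-18, 9416 and 9037 and 31304 and 29314 in TEM2-5, and 23433 and 22688 and 60110.5 and 58278 in PC-3. Both were far above the filter in every line and called lower in both TEM lines, as were 3 more of 7 tested epithelial markers, while 1 was higher in each. Summed signals of 15 endothelial markers were 5099 to 6494 in TEM4-18, 5401 to 5413 in TEM2-5 and 3526 to 3680 in PC-3, and those of 12 fibroblast markers 3735 to 4205 in TEM4-18, 5609 to 6069 in TEM2-5 and 3812 to 3903 in PC-3. Marker counts are to be read against the shares over all tested genes. These were 13.3% higher and 16.0% lower in TEM4-18, and 8.98% higher and 10.1% lower in TEM2-5. Of 7 tested fibroblast markers, 1 was higher and 2 lower in TEM4-18 and 2 were higher in TEM2-5, and none of 4 leukocyte markers passed the filter. Of the 7 endothelial markers that passed the filter, 4 rose in TEM4-18 and 3 in TEM2-5, KDR most among them in both, and PECAM1, CD34 and EGFL7 were not called. The other 8, CDH5, VWF, TEK, TIE1, CLDN5, ERG, EMCN and MMRN1, were below the filter, with signals of 7.17 to 301 over all arrays. None of those signals was 0. Endothelial cells make collagens too, and the part of these markers in the collagen results was not tested.

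Signals were compared as log2(signal + 51.8) in a limma fit over the 6 arrays, with each gene read from its brightest probe set and p-values adjusted over all 32768 tested probe sets. A gene was called past an adjusted p of 0.05. Among the 25 collagen genes above the filter, 9 were higher and 3 lower in TEM4-18 than in PC-3, against a background over all 13621 tested genes of 13.3% higher and 16.0% lower. In TEM2-5, 9 were higher and 1 lower than in PC-3, against 8.98% higher and 10.1% lower in the background. The median log2 fold change of the 25 genes was 0.42 in TEM4-18 and 0.51 in TEM2-5, while that of all tested genes was -0.038 in TEM4-18 and -0.024 in TEM2-5. Both comparisons use the same 2 PC-3 arrays. By probe set, 18 of 51 were higher and 6 lower in TEM4-18, where 12.8% of all tested probe sets passed in each direction, and 16 were higher and 2 lower in TEM2-5, against 8.66% and 7.59%. The TEM2-5 count of 9 higher genes fell to 5 without TEM2-5 replicate 2 and to 5 without PC-3 replicate 1. Its count of lower genes was 0 without TEM2-5 replicate 1, without TEM2-5 replicate 2 or without PC-3 replicate 1, and its 18 called probe sets became 10, 7 and 10 in those 3 cases. Since fewer cells of a kind and less RNA per cell give the same signal in bulk RNA, they cannot be told apart here.

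**Figure D1:**
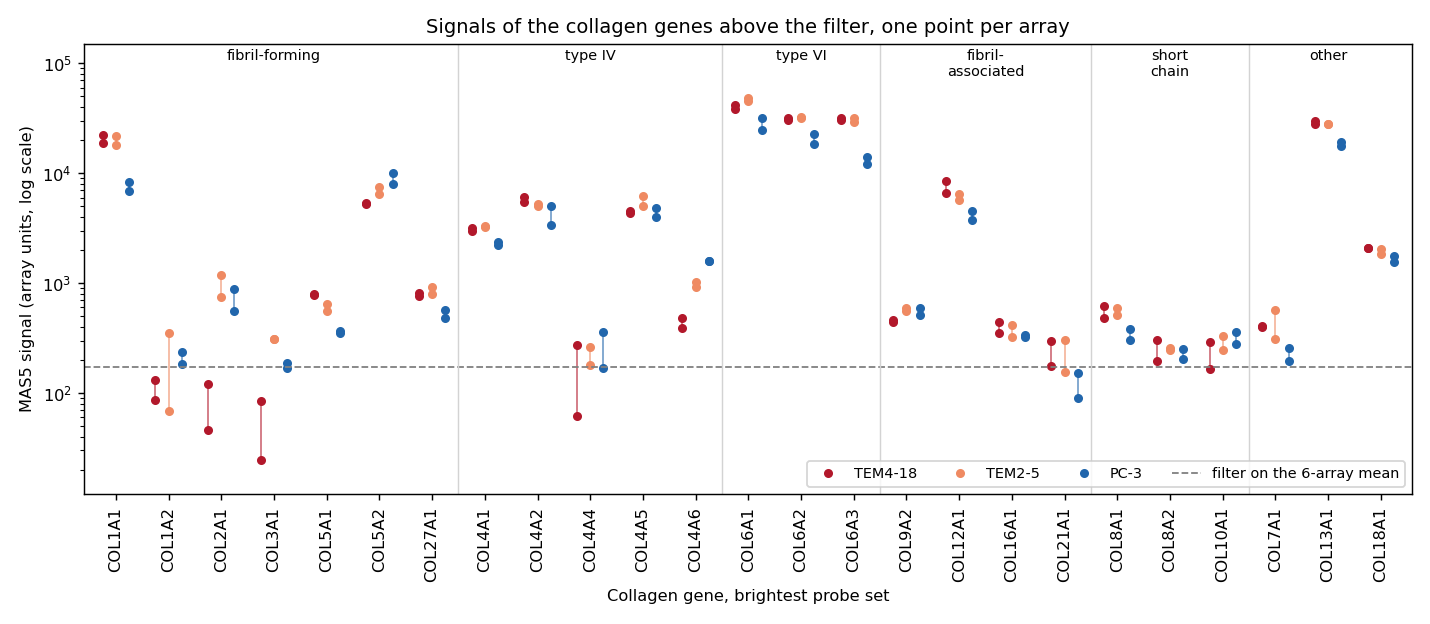
MAS5 signal of the brightest probe set of each of the 25 collagen genes above the filter, on a log scale in array units, with 1 point per array and a bar joining the 2 arrays of a line. Both TEM lines lay above PC-3 for COL1A1, COL6A1, COL6A2 and COL6A3, and COL4A6 and COL5A2 lay in the order TEM4-18, TEM2-5, PC-3 from low to high, whereas signals of different genes cannot be set against each other.

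The 7 members below the filter were COL4A3, COL5A3, COL9A1, COL9A3, COL11A1, COL14A1 and COL15A1, whose probe sets read between 1.86 and 304 on single arrays. Those nearest the filter were COL14A1 and COL5A3 just outside it, with 6-array means of 111 and 161, and COL1A2, COL3A1 and COL21A1 just inside it, with means of 176, 181 and 195. A gene such as COL2A1 passed through the lines in which it was high, so the 25 tested genes are not the whole family.

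Among the fibril-forming chains read by brightest probe set, COL1A1 showed the largest rise in both TEM lines. The COL5A1 probe set 212489_at rose more (1.81 on the log2 scale in TEM4-18 and 1.72 in TEM2-5). COL1A1 encodes the alpha 1 chain of type I collagen, the main collagen of bone, skin and tendon, and its brightest probe set, 1556499_s_at, read 18862 and 22388 in TEM4-18, 18052 and 21919.9 in TEM2-5 and 6869 and 8299 in PC-3. All 4 TEM arrays were above both PC-3 arrays, and those of the TEM lines overlapped. The log2 fold change was 1.44 ± 0.12 in TEM4-18 (SE, adjusted p = 1.43e-05) and 1.39 ± 0.12 in TEM2-5 (adjusted p = 5.09e-05), or 2.72 and 2.64 times the PC-3 mean. Of the 5 tested COL1A1 probe sets, 4 were called higher in TEM4-18 and 3 in TEM2-5. The exception in direction was 202312_s_at, which read 165 and 177 in TEM4-18, 88.9 and 203 in TEM2-5 and 512 and 352 in PC-3. It did not pass the test (log2 fold change -1.10, adjusted p = 0.0782 in TEM4-18, and -1.33, adjusted p = 0.0523 in TEM2-5). With all tested probe sets averaged, the COL1A1 rises were 0.76 in TEM4-18 and 0.56 in TEM2-5 and kept their calls. They were then smaller than those of COL5A1 averaged in the same way (1.46 in TEM4-18 and 1.18 in TEM2-5).

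The partner chain of type I collagen, COL1A2, gave low signals throughout. Its brightest probe set read 132 and 86.8 in TEM4-18, 68.2 and 351 in TEM2-5 and 235 and 182 in PC-3, and the other 2 probe sets read at most 84.5 on any array. The log2 fold changes of -0.70 ± 0.59 in TEM4-18 and -0.24 ± 0.59 in TEM2-5 did not pass (adjusted p = 0.445 and 0.842). Both TEM4-18 arrays were below the filter and below both PC-3 arrays, which were above it, and the TEM2-5 arrays overlapped those of the other lines. COL3A1, the single chain of type III collagen, was also near it, with 24.7 and 84.9 in TEM4-18, 308 and 308 in TEM2-5 and 169.7 and 188 in PC-3 and no call (adjusted p = 0.105 in TEM4-18 and 0.428 in TEM2-5).

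The 2 tested chains of type V collagen, which nucleates and limits the width of collagen fibrils, moved in opposite directions in TEM4-18. COL5A1 read 788 and 775 in TEM4-18, 554 and 652 in TEM2-5 and 366 and 349 in PC-3, and the 3 lines did not overlap. It rose by 1.03 ± 0.21 on the log2 scale in TEM4-18 (adjusted p = 0.00419) and by 0.67 ± 0.21 in TEM2-5 (adjusted p = 0.0495), and all 3 of its probe sets were called higher in each comparison. The TEM2-5 call on the brightest probe set was lost when any 1 of the 6 arrays was left out (adjusted p = 0.0732 to 0.252), while the average of the 3 probe sets rose by 1.18 (adjusted p = 0.00700). COL5A2 read 5296 and 5373 in TEM4-18, 7468 and 6462 in TEM2-5 and 9997 and 7987 in PC-3, with the TEM lines below PC-3 on every array. It fell in TEM4-18 (-0.74 ± 0.12, adjusted p = 0.00101), and its value of -0.36 ± 0.12 in TEM2-5 did not pass (adjusted p = 0.0628). The second COL5A2 probe set, 221730_at, read 2569 and 2805 in TEM4-18, 4522 and 4148 in TEM2-5 and 7006 and 5650.3 in PC-3 and was called lower in both (-1.21, adjusted p = 4.61e-05, and -0.53, adjusted p = 0.0138). With both COL5A2 probe sets averaged, a fall was called in TEM2-5 too. The brightest alone was called lower there with a filter at the 60th percentile or with the replicate block. The third type V chain gene, COL5A3, was below the filter.

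COL2A1, the chain of cartilage type II collagen, differed between the TEM lines. Its probe set 213492_at read 46.3 and 119.7 in TEM4-18, 1188 and 739.7 in TEM2-5 and 879 and 552 in PC-3. TEM4-18 lay below the filter on both arrays, and the TEM2-5 and PC-3 arrays overlapped. The log2 fold change against PC-3 was -2.53 ± 0.36 in TEM4-18 (adjusted p = 0.000454) and 0.40 ± 0.36 in TEM2-5 (adjusted p = 0.508). With 4 times the pseudocount the fall in TEM4-18 was -1.66, and low signals make its size uncertain. COL27A1, a fibrillar chain of developing cartilage, read 764 and 804 in TEM4-18, 794 and 914 in TEM2-5 and 477 and 573 in PC-3. Its rise passed in TEM2-5 (0.65 ± 0.19, adjusted p = 0.0407), where the call was lost without any 1 of the 6 arrays (adjusted p = 0.0543 to 0.223). Averaging its 3 tested probe sets gave 0.28 (adjusted p = 0.404). In TEM4-18 it did not pass (0.54 ± 0.19, adjusted p = 0.0613).

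**Figure D2:**
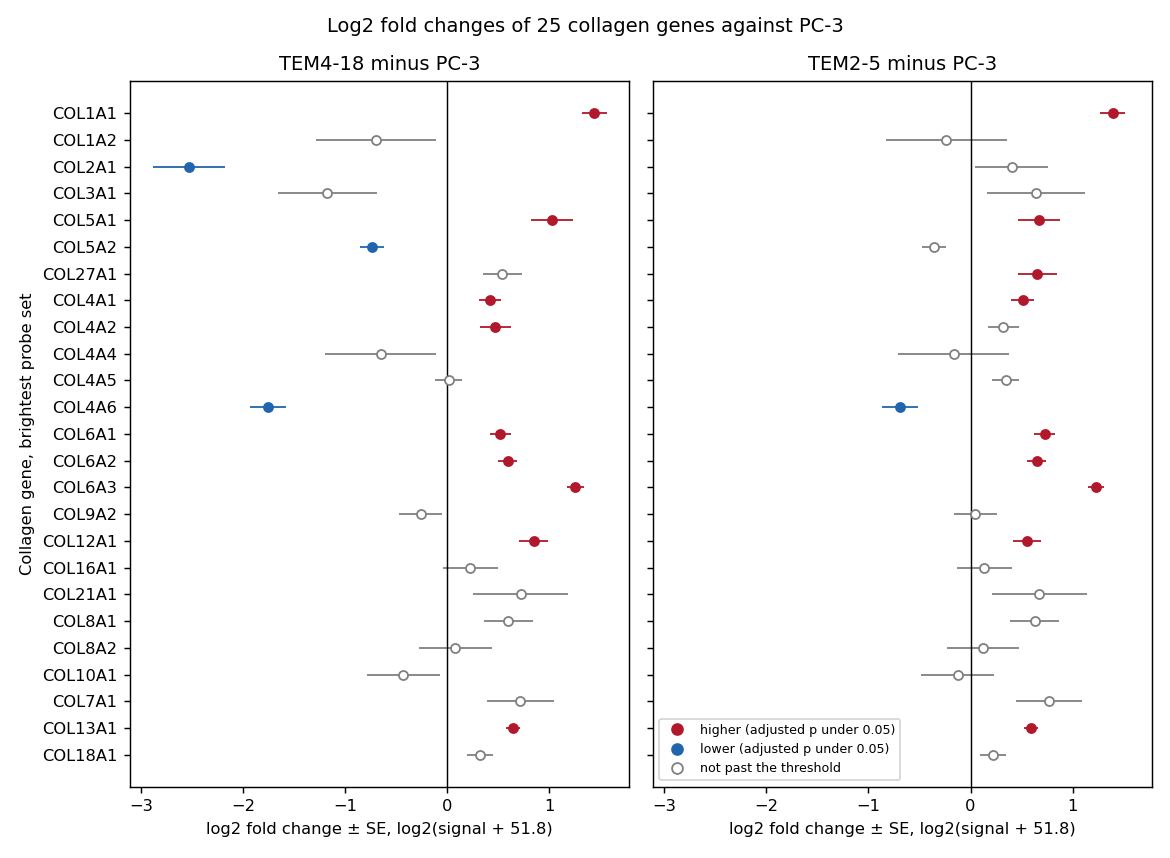
Log2 fold change against PC-3, with its standard error, for the 25 collagen genes above the filter, TEM4-18 on the left and TEM2-5 on the right, with filled points past an adjusted p of 0.05. In both panels COL1A1 and COL6A3 lay furthest to the right, and COL2A1 at -2.53 lay furthest to the left in TEM4-18 but at 0.40 in TEM2-5.

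Type IV collagen is assembled from 6 chains whose genes lie head to head in pairs, and 5 of the 6 chains passed the filter. COL4A1 and COL4A2, which encode the widespread alpha 1 and alpha 2 chains, share the stretch between their start sites. It holds 126 bases and is shown here because this pair had the highest mean signal of the head-to-head pairs. The stretch is read on the strand of COL4A1 up to the base before its start (RefSeq, GRCh38.p14, chr13:110307158-110307283, minus strand), with motif matches in capitals:
COL4A1 and COL4A2: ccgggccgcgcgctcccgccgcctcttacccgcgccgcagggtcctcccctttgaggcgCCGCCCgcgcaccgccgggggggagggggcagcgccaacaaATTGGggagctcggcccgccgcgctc
COL4A6, which encodes the alpha 6 chain of epithelial and smooth muscle basement membranes, lies head to head with COL4A5, with 379 bases between the nearest start sites. COL4A6 has 2 listed start sites, 1036 bases apart, and which of them was in use was not tested. The 250 bases before the COL4A6 start nearest to COL4A5, chosen after the COL4A6 values were seen, are shown because COL4A6 fell while COL4A5 was not called (RefSeq, GRCh38.p14, chrX:108439459-108439708, minus strand):
COL4A6: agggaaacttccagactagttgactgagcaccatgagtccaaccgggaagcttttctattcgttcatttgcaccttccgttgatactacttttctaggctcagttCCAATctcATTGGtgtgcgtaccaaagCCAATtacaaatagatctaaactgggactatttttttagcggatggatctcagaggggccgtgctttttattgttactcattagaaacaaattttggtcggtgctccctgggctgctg
The motifs searched, on both strands, were CAGGTG (the E-box bound by ZEB-type repressors), the CCAAT box, the GGGCGG box bound by Sp1-type factors and the TATAAA box. The stretch shared by COL4A1 and COL4A2 held 1 CCAAT and 1 GGGCGG, which occur in 21.1% and 34.6% of the 126-base stretches before 35114 RefSeq start sites, and no CAGGTG or TATAAA. The COL4A6 stretch held 3 CCAAT, a motif found in 32.0% of 250-base stretches, and none of the other 3. The matches shown do not overlap each other, and a match describes letters, not a bound site.

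COL4A1 was moderately higher in both TEM lines. Its signals were 2963 and 3174 in TEM4-18, 3248 and 3285 in TEM2-5 and 2203 and 2355 in PC-3. Both TEM lines were above PC-3 on every array, with a log2 fold change of 0.42 ± 0.11 in TEM4-18 (adjusted p = 0.0168) and 0.51 ± 0.11 in TEM2-5 (adjusted p = 0.0101). The TEM4-18 call was lost without TEM4-18 replicate 2 (adjusted p = 0.0983) and without PC-3 replicate 1 (adjusted p = 0.0829), and the TEM2-5 call without TEM2-5 replicate 1 (adjusted p = 0.0579), without TEM2-5 replicate 2 (adjusted p = 0.0677) and without PC-3 replicate 1 (adjusted p = 0.0532). With all its probe sets averaged the TEM4-18 value was 0.32 (adjusted p = 0.0861). COL4A2 read 5435 and 6026 in TEM4-18, 5039 and 5266 in TEM2-5 and 3384 and 4991 in PC-3. Its second probe set, 211966_at, was not called (0.34, adjusted p = 0.203 in TEM4-18, and 0.23, adjusted p = 0.430 in TEM2-5). With both averaged the TEM4-18 value was 0.41 and not called (adjusted p = 0.0980). The brightest probe set passed narrowly in TEM4-18 (0.47 ± 0.15, adjusted p = 0.0467) and not in TEM2-5 (0.32 ± 0.15, adjusted p = 0.198). Its TEM4-18 call was lost with a pseudocount of 1, no filter, quantile normalization or no mean-variance trend (adjusted p = 0.0518 to 0.188). The PC-3 arrays differed from each other more than those of the TEM lines did, and the TEM4-18 value was 0.20 without PC-3 replicate 1 (adjusted p = 0.307) and 0.75 without PC-3 replicate 2 (adjusted p = 0.00227). The call was kept in the last case and lost when any other single array was left out (adjusted p = 0.0647 to 0.307). The TEM2-5 value was 0.045 without PC-3 replicate 1 (adjusted p = 0.861) and 0.60 without PC-3 replicate 2, where it passed (adjusted p = 0.0142).

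COL4A6 fell in both TEM lines, further in TEM4-18. The brightest probe set, 213992_at, read 486 and 388 in TEM4-18, 1022 and 915 in TEM2-5 and 1602 and 1579 in PC-3, and no 2 lines overlapped. The log2 fold change was -1.76 ± 0.17 in TEM4-18 (adjusted p = 4.33e-05) and -0.69 ± 0.17 in TEM2-5 (adjusted p = 0.0225). All 3 COL4A6 probe sets were called lower in TEM4-18 and 1 of the 3 in TEM2-5, with the other 2 at -0.26 and -0.61. Averaging all 3 gave -1.64 in TEM4-18 (adjusted p = 0.00238) and -0.52 in TEM2-5 (adjusted p = 0.253). The TEM2-5 call was lost without TEM2-5 replicate 1, TEM2-5 replicate 2, PC-3 replicate 1 or PC-3 replicate 2 (adjusted p = 0.0720 to 0.139). COL4A5, its neighbour and the alpha 5 chain of the same networks, read 4573 and 4312 in TEM4-18, 6237 and 5015 in TEM2-5 and 3963 and 4864 in PC-3. Its log2 fold change was 0.016 ± 0.13 in TEM4-18 (adjusted p = 0.949) and 0.35 ± 0.13 in TEM2-5 (adjusted p = 0.106), so no change was called. COL4A4, a chain of the kidney filter's basement membrane, was just above the filter with 271 and 62.1 in TEM4-18, 260.4 and 179 in TEM2-5 and 168 and 360.5 in PC-3, overlapping in each comparison, and its partner COL4A3 was below it.

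The 3 type VI chains above the filter, COL6A1, COL6A2 and COL6A3, were higher in both TEM lines, and the type VI genes COL6A5 and COL6A6, which are not among the 32, were below it. Type VI collagen is a heterotrimer of the alpha 1, alpha 2 and alpha 3 chains in most tissues and binds cells to the surrounding matrix. COL6A3, the longest of these chains, read 30317 and 31633 in TEM4-18, 29205 and 31699 in TEM2-5 and 12064 and 13904 in PC-3. Every TEM array was more than 2 times every PC-3 array, the TEM lines overlapped, and the log2 fold change was 1.25 ± 0.08 in TEM4-18 (adjusted p = 2.35e-06) and 1.23 ± 0.08 in TEM2-5 (adjusted p = 1.04e-05). It had the smallest adjusted p of the collagen genes in both comparisons, and for that reason, seen in the values, the 250 bases before its start site are shown (RefSeq, GRCh38.p14, chr2:237414165-237414414, minus strand). They held none of the 4 motifs and so carry no capitals:
COL6A3: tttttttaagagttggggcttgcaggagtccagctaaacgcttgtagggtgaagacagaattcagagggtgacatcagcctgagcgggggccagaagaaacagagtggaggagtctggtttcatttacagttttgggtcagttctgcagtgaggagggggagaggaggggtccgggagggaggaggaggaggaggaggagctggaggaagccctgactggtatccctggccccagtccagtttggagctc

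The other type VI genes, COL6A1 and COL6A2, are neighbours on chromosome 21. COL6A1 read 41849.7 and 38692 in TEM4-18, 45032 and 48009 in TEM2-5 and 24705 and 31906 in PC-3. Its rise was 0.52 ± 0.10 in TEM4-18 (adjusted p = 0.00406) and 0.73 ± 0.10 in TEM2-5 (adjusted p = 0.000980). Of its 5 tested probe sets 2 were called higher in each line and the other 3 were not called, with all 5 above 0 in both. The TEM4-18 rise was 0.33 without PC-3 replicate 1 (adjusted p = 0.0176). COL6A2 read 30262 and 31562 in TEM4-18, 32432 and 31781 in TEM2-5 and 18393 and 22798 in PC-3, with a rise of 0.59 ± 0.09 in TEM4-18 (adjusted p = 0.000853) and 0.65 ± 0.09 in TEM2-5 (adjusted p = 0.000946). Its second probe set, 213290_at, was not called, with -0.14 in TEM4-18 and 0.0018 in TEM2-5, and with both averaged neither call held (0.22, adjusted p = 0.127, and 0.32, adjusted p = 0.0520). Without a mean-variance trend in the test, the COL6A1 calls in both lines (adjusted p = 0.0900 and 0.0635) and the COL6A2 call in TEM2-5 (adjusted p = 0.0620) were lost too.

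**Figure D3:**
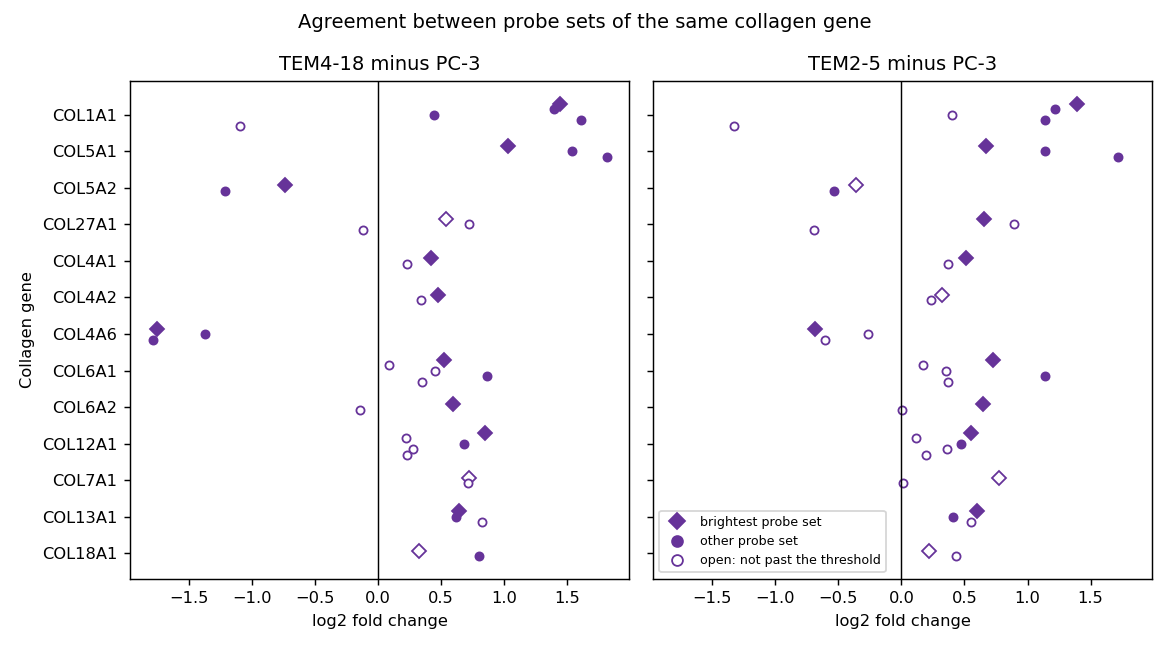
Log2 fold change against PC-3 of every tested probe set for the 13 collagen genes with more than 1, TEM4-18 on the left and TEM2-5 on the right, with diamonds for the brightest probe set and open symbols for values not past an adjusted p of 0.05. COL5A1, COL5A2 and COL4A6 have all their symbols on 1 side of 0 in both panels. COL1A1 and COL27A1 have 1 probe set on the opposite side in both panels, and COL6A2 has 1 in TEM4-18 only.

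Of the fibril-associated chains, COL12A1 rose. Type XII collagen lies on the surface of type I fibrils in dense connective tissue. COL12A1 read 6569 and 8464 in TEM4-18, 5690.2 and 6510.4 in TEM2-5 and 3736 and 4556 in PC-3, with both TEM lines above PC-3 and a log2 fold change of 0.85 ± 0.14 in TEM4-18 (adjusted p = 0.00126) and 0.56 ± 0.14 in TEM2-5 (adjusted p = 0.0215). Of its 5 tested probe sets, 2 were called higher in each line. The TEM2-5 call was lost without TEM2-5 replicate 2 (adjusted p = 0.147) and without PC-3 replicate 1 (adjusted p = 0.125). Averaging the 5 probe sets gave 0.45 in TEM4-18 (adjusted p = 0.0191) and 0.34 in TEM2-5 (adjusted p = 0.0813). The other 3 tested genes of this class were not called in any comparison. COL9A2, a chain of cartilage type IX collagen, ranged over the lines from 442 to 594, COL16A1 from 321 to 438 and COL21A1 from 90.0 to 304.

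COL13A1 encodes a collagen that stays anchored in the plasma membrane at sites of cell adhesion. It read 27881 and 29878 in TEM4-18, 28003 and 27851 in TEM2-5 and 19156 and 17781 in PC-3. Both TEM lines were above PC-3 without overlap, and the rise was 0.64 ± 0.07 in TEM4-18 (adjusted p = 7.58e-05) and 0.60 ± 0.07 in TEM2-5 (adjusted p = 0.000294). The rise was called on 2 of its 3 probe sets in each line. COL18A1, a basement membrane collagen whose end fragment is endostatin, gave 2083 and 2069.8 in TEM4-18, 1823 and 2050.5 in TEM2-5 and 1564 and 1748 in PC-3 on its brightest probe set and was not called (adjusted p = 0.101 in TEM4-18 and 0.302 in TEM2-5). A second COL18A1 probe set, 209082_s_at, read 1539 and 1529 in TEM4-18, 1315 and 1060.0 in TEM2-5 and 916 and 806 in PC-3 and was called higher in TEM4-18 (0.80 ± 0.16, adjusted p = 0.00429).

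The remaining 4 tested genes had low signals and no call. COL7A1, the chain of the anchoring fibrils that tie epithelium to its underlying tissue, read 397 and 406 in TEM4-18, 565 and 307 in TEM2-5 and 196 and 255 in PC-3, with every TEM array above both PC-3 arrays (adjusted p = 0.140 in TEM4-18 and 0.142 in TEM2-5). COL8A1, a short-chain network collagen of vessel walls and the cornea, read 613 and 477 in TEM4-18, 594 and 515 in TEM2-5 and 378 and 305 in PC-3, likewise with every TEM array above both PC-3 arrays (adjusted p = 0.100 in TEM4-18 and 0.111 in TEM2-5). COL8A2 ranged from 193 to 305 over the 6 arrays and COL10A1, the collagen of hypertrophic cartilage, from 164 to 358, with the lines overlapping.

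The direct comparison of TEM4-18 with TEM2-5 asked whether the isolates differed. It called 2 of the 25 collagen genes lower in TEM4-18, against a background of 2.26%, and 0 higher by limma, against 0.492%. At an unadjusted limma p under 0.05, 0 were higher and 5 lower. Shares over all tested genes or probe sets were not counted at that threshold, so the unadjusted counts given here have no background. The log2 difference was -2.93 ± 0.36 for COL2A1 (adjusted p = 0.00180) and -1.07 ± 0.17 for COL4A6 (adjusted p = 0.0120). Neither passed without the mean-variance trend (adjusted p = 0.0890 for both), nor did COL4A6 with its 3 probe sets averaged (-1.12, adjusted p = 0.0871). The COL4A6 call was lost without TEM4-18 replicate 2 (adjusted p = 0.0803), without TEM2-5 replicate 1 (adjusted p = 0.134) and without TEM2-5 replicate 2 (adjusted p = 0.0691), which left 1 lower gene in each case. By probe set, 0 were higher and 3 lower in TEM4-18, against 0.357% and 1.43% of all tested probe sets, with 1 higher and 8 lower at an unadjusted p under 0.05, and 1 remained called without any 1 of those 3 arrays. The second COL5A2 probe set was lower in TEM4-18 as well (-0.68 ± 0.12, adjusted p = 0.0200). For COL1A1 the difference between the TEM lines was 0.047 ± 0.12 and for COL6A3 0.025 ± 0.08, neither past the threshold (adjusted p = 0.929 and 0.944).

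Counts for lists of collagen-related genes are to be read against the shares over all tested genes, 13.3% higher and 16.0% lower in TEM4-18 and 8.98% higher and 10.1% lower in TEM2-5. Of 23 tested genes that fold, modify and export procollagen, 3 were higher and 6 lower in TEM4-18, and 3 were higher and 2 lower in TEM2-5, with medians of -0.084 and -0.035. The 3 higher genes in TEM4-18 and the 2 lower genes in TEM2-5 are close to the overall shares. The largest changes in TEM4-18 were those of PLOD2 (-1.64 ± 0.11, adjusted p = 3.29e-06), which hydroxylates lysines for cross-links, the chaperone-like FKBP7 (0.68), the prolyl hydroxylase subunit P4HA2 (-0.67) and the lysyl hydroxylase PLOD1 (-0.57). PLOD2 read 5102 and 5903 in TEM4-18, 7930.3 and 9661 in TEM2-5 and 16407 and 18169.5 in PC-3, and the 3 lines did not overlap. In TEM2-5 the largest were PLOD2 (-0.98 ± 0.11, adjusted p = 0.000286), FKBP7 (0.77), the prolyl 3-hydroxylase P3H1 (0.58, and 0.46 in TEM4-18, where it was called too) and PLOD1 (-0.39). P4HA2 was not called in TEM2-5 (-0.36, adjusted p = 0.0620).

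Of 11 tested genes of procollagen processing and cross-linking, 4 were higher and 3 lower in TEM4-18, and 4 were higher and 3 lower in TEM2-5, with medians of 0.12 and 0.084. The transglutaminase TGM2 fell most in both (-2.80 ± 0.13 in TEM4-18, adjusted p = 2.16e-07, and -1.54 ± 0.13 in TEM2-5, adjusted p = 4.2e-05). Of the lysyl oxidases, which start collagen cross-links, 2 rose and 2 fell in each TEM line. LOXL4 rose by 1.87 in TEM4-18 and 1.32 in TEM2-5, and LOXL2, named after its values were seen, by 1.06 and 1.05. LOXL3 was called at -1.10 in TEM4-18 and -1.05 in TEM2-5, and LOXL1 at -1.24 and -0.68. LOXL4 read 2464 and 2228 in TEM4-18, 1879 and 1350.1 in TEM2-5 and 565 and 649 in PC-3, with every TEM array above both PC-3 arrays. PCOLCE, an enhancer of procollagen processing, rose by 0.91 in TEM4-18 and 1.09 in TEM2-5.

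Among 10 tested collagen receptors, 3 were higher and 1 lower in TEM4-18, and 3 were higher and 0 lower in TEM2-5 by limma, also at an unadjusted p under 0.05, with medians of 0.12 and 0.23. ITGA1, the alpha 1 integrin subunit that prefers type IV collagen, read 2214 and 1609 in TEM4-18, 1922 and 1151 in TEM2-5 and 480.0 and 539 in PC-3. Both TEM lines were above PC-3, with rises of 1.79 ± 0.24 in TEM4-18 (adjusted p = 0.000298) and 1.46 ± 0.24 in TEM2-5 (adjusted p = 0.00215). ITGA2, the alpha 2 subunit that prefers fibrillar collagen, was lower in TEM4-18 (-0.58 ± 0.09, adjusted p = 0.000800) and not called in TEM2-5 (-0.11). The collagen uptake receptor MRC2 rose by 0.62 in TEM4-18 and 0.48 in TEM2-5, and CD44, a hyaluronan receptor, by 0.43 and 0.26.

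Of 16 tested basement membrane partners of type IV collagen, 2 were higher and 2 lower in TEM4-18, and 1 was higher and 1 lower in TEM2-5, with medians of -0.043 and 0.13, each count being under the overall share. SPARC, a collagen-binding matrix protein, was called higher in TEM4-18 (adjusted p = 0.00981) and not in TEM2-5 (adjusted p = 0.0866). It read 711 and 434 in TEM4-18, 406 and 204 in TEM2-5 and 159.9 and 9.46 in PC-3, and since both PC-3 arrays were below the filter, the size of the rise is not resolved. The fibulin FBLN1 rose by 1.26 in TEM4-18 and 0.83 in TEM2-5. The laminin chain LAMB3 was at -1.27 in TEM4-18 and -0.66 in TEM2-5, and the proteoglycan perlecan, HSPG2, at -0.99 in TEM4-18, with -0.14 and no call in TEM2-5. Of 13 tested fibril-associated proteoglycans and glycoproteins, 3 were higher and 3 lower in TEM4-18, and 3 were higher and 1 lower in TEM2-5, with medians of 0.0016 and 0.13. Thrombospondin 1, THBS1, fell to 661 and 682 in TEM4-18 and 4163 and 5726 in TEM2-5, against 21229 and 26727 in PC-3, with log2 fold changes of -5.04 in TEM4-18 and -2.27 in TEM2-5. The fibrillin FBN1, a microfibril protein, rose by 1.58 in TEM4-18 and 1.69 in TEM2-5, the elastic fibre protein EMILIN2 by 0.72 and 0.57, and FBN2 by 0.62 and 0.64. Lumican, LUM, which also stands among the fibroblast markers, was called lower in TEM4-18 (adjusted p = 0.000549) and not in TEM2-5 (adjusted p = 0.138). It read 2.95 and 42.3 in TEM4-18, 198 and 316 in TEM2-5 and 473 and 759.6 in PC-3, and since both TEM4-18 arrays were below the filter, the size of the fall is not resolved. FBLN1 is a fibroblast marker here too.

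Collagen genes outside the 32 gave little signal. Of 11 read here, 4 passed the filter, and limma called 0 of them in each of the 3 comparisons, with 0 at an unadjusted p under 0.05. COL11A2, a chain of cartilage type XI collagen, read 864 and 629 in TEM4-18, 927 and 607 in TEM2-5 and 744 and 585 in PC-3.

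**Figure D4:**
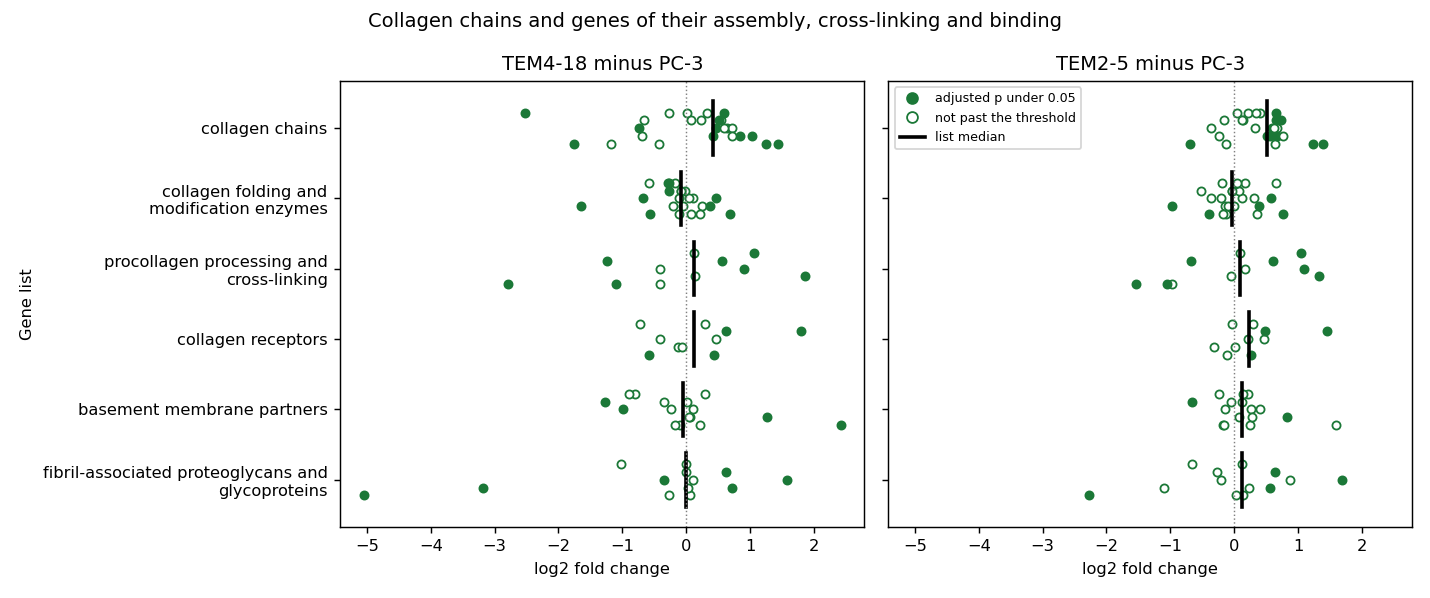
Log2 fold change against PC-3 of each tested gene in the collagen list and in 5 lists of genes that assemble, cross-link or bind collagens, TEM4-18 on the left and TEM2-5 on the right, with filled points past an adjusted p of 0.05 and black bars at list medians. The collagen median lies at 0.42 and 0.51, the other medians lie between -0.084 and 0.23, and every list holds filled points on both sides of 0 in TEM4-18.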

How the data were processed

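Per the submitters' processing notes, the deposited values are linear signal intensities per probe set made with MAS5, for which no version is given. The 2% trimmed mean was 1500.17 or 1500.18 on all 6 arrays, and the values were used without further normalization. Platform annotation gave 41097 of 54675 probe sets 1 symbol, 1801 several and 11777 none, and only the first were named. IDs matched to RefSeq changed 0 symbols and left 54 unmatched. All 62 control probe sets were left out.

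Intensities were transformed to log2(value + 51.8), the 20th percentile of all values, which understates changes of weak genes. In R 4.3.3, limma 3.58.1 fitted 3 line means to the 6 arrays (3 residual degrees of freedom, median residual SD 0.17) with a mean-variance trend, two-sided tests and Benjamini-Hochberg adjustment over 32768 probe sets. Errors of fold changes are SEs. Probe sets ending in _s_at or _x_at may also read other transcripts, related genes among them. Groups of 2 arrays limit precision. The fit was tested on simulated data.

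Members, gene lists, tests and named genes were chosen with earlier results of these data known. Every tested member was named, with full statistics for those called, and the 4 or fewer largest called genes per context list. The title was followed where a source name gave the second TEM2-5 array as replicate 1. The protocol text of both PC-3 arrays and TEM4-18 replicate 1 describes an RNA quality check that the text of the other 3 arrays does not mention. Over the 6 arrays the 3' signal divided by the 5' signal ranged from 1.14 to 1.22 (ACTB) and from 0.923 to 0.986 (GAPDH). The 14 alternatives covered pseudocount, filter, quantile normalization, trend, probe set choice, replicate block and each array left out.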

Additional observations from a re-analysis of the deposited data

Results flagged for a closer look

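A test of the difference itself set the TEM lines apart on 3 collagen probe sets. For COL2A1 the log2 difference of TEM4-18 minus TEM2-5 was -2.93, with 83.0 ± 51.9 in TEM4-18 and 964 ± 317 in TEM2-5 (SD, n = 2 each, limma adjusted p = 0.00180). Both TEM4-18 arrays were below the filter and the gene passed it through the other lines, so the size depends on the pseudocount, with -3.63 at a pseudocount of 1 and -2.0 at 4 times the one used. COL4A6 differed by -1.07, with 437 ± 69.0 in TEM4-18 and 968 ± 75.6 in TEM2-5 (limma adjusted p = 0.0120). The COL5A2 probe set 221730_at differed by -0.68, with 2687 ± 167 in TEM4-18 and 4335 ± 264 in TEM2-5 (limma adjusted p = 0.0200). The brighter COL5A2 probe set was not called between the lines (-0.38, adjusted p = 0.184). With both averaged the difference was called (-0.53, limma adjusted p = 0.0481).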

How the results depend on the processing

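Over 14 alternatives, 100 of the 123 recomputed counts of called collagen genes or probe sets stayed within 1.5 times their reported count. These include the count of genes higher in TEM4-18 than in TEM2-5, which was 0 as reported. A count of 0 that stays 0 is among the 100 and does not speak for stability. In TEM2-5 against PC-3, the 9 higher genes became 4 without the mean-variance trend and 5 to 8 with each array left out, and the 1 lower gene became 0 with no filter on low values, 2 with a filter at the 60th percentile, 0 without the trend, 2 with the replicate block and 0 to 1 with each array left out. The 18 called probe sets of that comparison became 11 with no filter, 7 without the trend and 7 to 15 with each array left out. In TEM4-18 against TEM2-5, the 2 lower genes became 0 without the trend and 1 to 2 with each array left out, and the 3 called probe sets became 0 without the trend and 1 to 3 with each array left out. Counts for TEM4-18 against PC-3 stayed within 1.5 times under the alternatives run, with 6 higher genes without the trend. For the 13 collagen genes called in any comparison, 278 recomputed calls held, 58 were lost and 0 turned direction. Uncalled differences between the TEM lines changed sign for COL27A1 with all probe sets averaged (0.094) and, with single arrays left out, for COL1A1 (-0.093 to 0.19), COL6A3 (-0.034 to 0.084) and COL13A1 (-0.0023 to 0.097). Some uncalled results were called under an alternative, among them COL5A2 in TEM2-5 with its probe sets averaged. Quantile normalization changed no sign of a called gene. Where not shown by construction, the cause was not tested. Replicate 1 minus replicate 2 correlated between lines at 0.062 to 0.098, so the numbers were not taken as pairs. Such a correlation does not measure a shift shared by the probe sets of an array. In each line the median signal was higher on replicate 1 than on replicate 2. The medians were 296 and 267 in TEM4-18, 310 and 281 in TEM2-5, and 317 and 282 in PC-3. Signals near the filter limit what can be said of the low members.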

Other observations

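Of the 32 collagen genes, 5 pairs are adjacent protein-coding genes in the RefSeq annotation, and neighbours had unlike values in some of them. On chromosome 2, COL5A2 had a log2 fold change of -0.74 in TEM4-18 and -0.36 in TEM2-5, and its neighbour COL3A1 -1.17 and 0.64. COL3A1 lay near the filter and was called in neither line, and COL5A2 was not called in TEM2-5. On chromosome X, COL4A6 was at -1.76 and -0.69, and COL4A5 at 0.016 and 0.35. On chromosome 13, COL4A1 was at 0.42 and 0.51, and COL4A2 at 0.47 and 0.32. On chromosome 21, COL6A1 was at 0.52 and 0.73, and COL6A2 at 0.59 and 0.65. The fifth pair, COL4A3 and COL4A4, was not tested as a pair because COL4A3 lay below the filter. The differences between neighbours were not tested.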
